A study of Mus musculus with 15 samples.

Results

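Polycomb repressive complex 1 (PRC1) was followed through 9 of its subunit genes, Ring1, Rnf2, Bmi1, Pcgf2, Cbx2, Cbx6, Cbx7, Cbx8 and Phc1, in RNA sequencing counts of B16-F10 cells, a pigmented mouse melanoma line. The 9 genes were chosen by name as the complex that reads the histone mark H3K27me3, and are 9 of the 46078 gene identifiers in the count table. All 9 passed the low-count filter, which left 15152 genes. Cells received 2 µM GSK126, an inhibitor of the methyltransferase EZH2, or 2 µM DZNep, an inhibitor of S-adenosylhomocysteine hydrolase, each set against the vehicle DMSO. In parallel, cells received an siRNA against Ezh2 (siEzh2), set against a scrambled siRNA (scr). Each group had 3 libraries, 15 in all, from a single cell line. The design asks how gene expression differs between blocking the enzyme, blocking methylation more widely and removing the transcript.

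PRC1 is a ubiquitin ligase of chromatin. A RING protein, RING1 or RNF2, pairs with a PCGF protein such as BMI1 or PCGF2 and places a single ubiquitin on histone H2A. In the canonical form of the complex a chromobox (CBX) protein binds H3K27me3, the mark laid down by EZH2 within Polycomb repressive complex 2 (PRC2), and a Polyhomeotic protein such as PHC1 links complexes together on chromatin. Variant forms carry RYBP or YAF2 in place of a CBX protein. BMI1 is known for holding down the Cdkn2a locus and for self-renewal in stem and tumour cells.

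Total counts per library lay between 33299524 and 64545747, so 1 count was worth between 0.0154 and 0.0306 CPM (counts scaled to a common library size). The lowest count of any of the 9 genes in any library was 258, for Cbx8. Levels are CPM on library sizes scaled by the TMM method, and changes are log2 fold changes ± standard error from edgeR, whose quasi-likelihood test gave every adjusted p below unless another setting is named. A gene was called at an adjusted p under 0.05. In bulk RNA, fewer cells with a transcript and less of it per cell cannot be told apart. The targeted gene Ezh2 stood at 39.6 ± 1.87 CPM with siEzh2 and at 219 ± 6.59 CPM in scr (SD, n = 3 each). The end of each library name carries a number, whose meaning is not given, and it is 3 for GSK126 replicate 1, 4 to 9 in the siRNA arm and 13 to 20 in the other compound libraries. Calls of the 9 genes that depended on GSK126 replicate 1 are named.

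Against their controls the called subunit genes changed by at most 1.54-fold. With GSK126, Bmi1 and Rnf2 rose (2 of 9 genes, where 7.15% of all tested genes were called higher) and Ring1 and Cbx6 fell (2 of 9, where 5.54% were called lower). That is 4 of 9 called, against 12.7% of all genes. With DZNep, Cbx8, Cbx2 and Rnf2 rose (3 of 9, where 31.2% of all genes were called higher) and Ring1 fell (1 of 9, where 31.0% were called lower), again 4 of 9 called, against 62.3% of all genes. With siEzh2, Bmi1 rose (1 of 9, where 13.2% were called higher) and Cbx2, Cbx7 and Phc1 fell (3 of 9, where 12.9% were called lower), 4 of 9 called, against 26.1% of all genes. The libraries of a pair of groups did not overlap for 30.7% of all genes with GSK126, 63.0% with DZNep and 41.8% with siEzh2. That is the background for each statement below on overlap of a gene's CPM with its control. None was computed for overlap of ratios, of chromobox shares or in the order of levels. The median log2 fold change of the 9 genes was −0.03 with GSK126, 0.10 with DZNep and −0.01 with siEzh2, beside −0.01, 0.00 and −0.01 over all genes. Pcgf2 was called in none of the 3 comparisons.

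**Figure D1:**
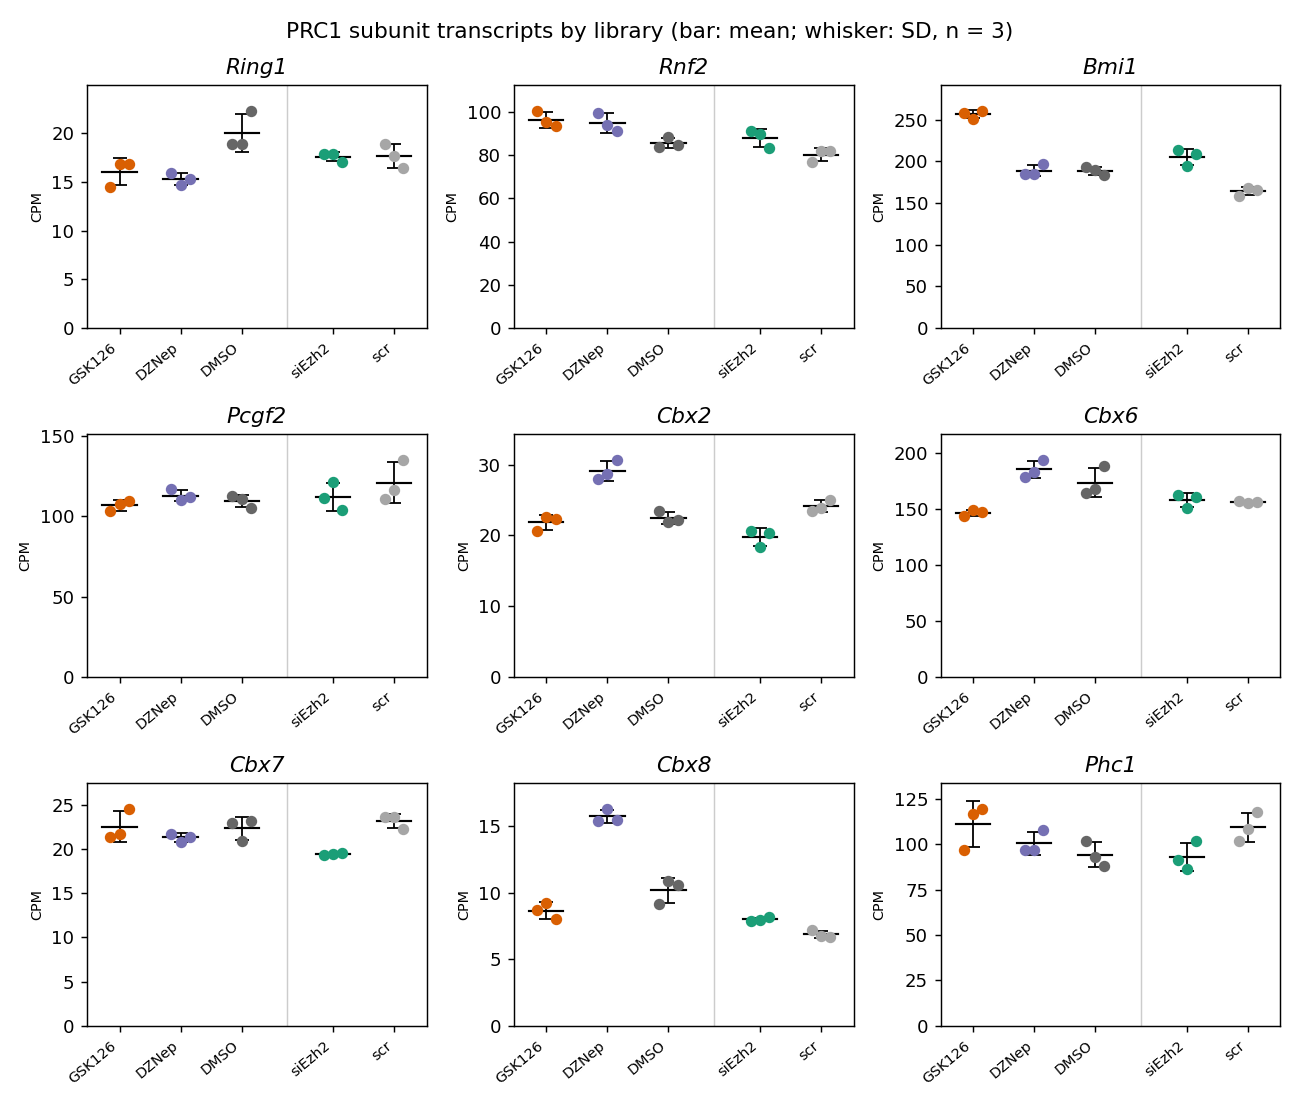
CPM (linear axis from 0) of each of the 9 genes in each library, with GSK126, DZNep and DMSO left of the grey line and siEzh2 and scr right of it; bars are means and whiskers SD of 3 libraries. Bmi1 is highest with GSK126, at 251 to 260.3 CPM, and Cbx8 with DZNep, at 15.4 to 16.3 CPM.

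Per kilobase of exon, so that genes can be set side by side, the PCGF pair led in DMSO. Bmi1 stood at 47.5 ± 1.23 CPM per kilobase and Pcgf2 at 31.0 ± 1.06 (SD, n = 3 each, as for the other levels here). Rnf2 followed at 20.8 ± 0.613, Phc1 at 17.8 ± 1.31 and Cbx6 at 16.4 ± 1.22. Ring1, at 6.18 ± 0.598, Cbx2, at 5.29 ± 0.202, Cbx7, at 3.44 ± 0.198, and Cbx8, at 2.77 ± 0.253, were the lowest. In this order of levels the libraries of Phc1 and Cbx6 overlapped, and no other neighbours did. Exon length was the union of all annotated exons, which need not match the transcript expressed. For Cbx6 it covered 10609 of the 10793 bases of the gene. The order rests on these lengths.

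RING1 and RNF2 are the catalytic RING subunits. Ring1 (ENSMUSG00000024325, chromosome 17, 34020792 to 34024680, GRCm38, minus strand) had 14.5, 16.9 and 16.8 CPM with GSK126 and 15.9, 14.7 and 15.3 CPM with DZNep, against 18.9, 18.9 and 22.3 CPM in DMSO. All 6 compound libraries lay below all DMSO libraries. Ring1 fell with GSK126 (log2 −0.32 ± 0.08, adjusted p = 0.00929) and with DZNep (−0.39 ± 0.08, adjusted p = 0.000208). Both comparisons use the same DMSO libraries. The GSK126 call of Ring1 was lost without GSK126 replicate 1 (−0.25, adjusted p = 0.0708), without DMSO replicate 3 (−0.23, adjusted p = 0.0618) and in a fit of GSK126 and DMSO alone (−0.33, adjusted p = 0.0517). In the siRNA arm Ring1 had 17.9, 17.9 and 17.02 CPM with siEzh2, against 18.9, 17.6 and 16.4 CPM in scr, and the groups overlapped (−0.01 ± 0.08, adjusted p = 0.948).

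Rnf2 (ENSMUSG00000026484, chromosome 1, 151458004 to 151500955, minus strand) had the higher level per exon length of the 2 RING genes in all groups. It had 100.5, 95.3 and 93.3 CPM with GSK126 and 99.7, 93.9 and 91.0 CPM with DZNep, against 83.8, 88.5 and 84.6 CPM in DMSO. The compound libraries lay above those of DMSO by a small margin. Rnf2 rose by 0.17 ± 0.05 on the log2 scale with GSK126 (adjusted p = 0.039) and by 0.15 ± 0.05 with DZNep (adjusted p = 0.0207). These calls are near the threshold. That with GSK126 was lost without any 1 of the GSK126 replicates 1 (adjusted p = 0.158), 2 (0.0875) and 3 (0.0584) or of the DMSO replicates 1 (0.0839) and 3 (0.0942), with no count filter (0.0841) and in a fit of these groups alone (0.0878). That with DZNep was lost without DMSO replicate 1 (0.0677) or DZNep replicate 1 (0.111), with no count filter (0.0776) and in a fit of these groups alone (0.0659). With siEzh2, Rnf2 stood at 91.1, 89.8 and 83.1 CPM, against 76.7, 81.9 and 82.0 CPM in scr, groups that did not overlap though the gene was not called (0.13 ± 0.05, adjusted p = 0.0704; 0.0442 by DESeq2 and 0.0249 without siEzh2 replicate 3). Trmt1l, on the other strand, shares 158 bases of exon with Rnf2, 3.83% of its exon length.

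The ratio of the 2 RING genes within a library, in counts per exon length, does not depend on scaling between libraries. Rnf2 over Ring1 averaged 4.75 ± 0.609 with GSK126 and 4.87 ± 0.182 with DZNep, and 3.38 ± 0.358 in DMSO (SD, n = 3 each). It averaged 3.93 ± 0.0853 with siEzh2 and 3.59 ± 0.372 in scr. The compound groups did not overlap with DMSO (two-sided exact permutation p = 0.1 for each, the smallest that 3 against 3 libraries allow), while siEzh2 and scr did overlap (exact permutation p = 0.2).

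BMI1 and PCGF2 are PCGF partners that stimulate the RING ligase. Bmi1 (ENSMUSG00000026739, chromosome 2, 18677018 to 18686629, plus strand) had the highest level of the 9 genes and the smallest p with GSK126 and with siEzh2. It had 258, 251 and 260.3 CPM with GSK126 and 185, 184 and 197 CPM with DZNep, against 193, 189.9 and 183 CPM in DMSO. Every GSK126 library lay far above every DMSO library, whereas the DZNep libraries overlapped with those of DMSO. Bmi1 rose 1.36-fold with GSK126 (0.44 ± 0.05, adjusted p = 3.92e-06) and stood at 0.00 ± 0.05 with DZNep (95% interval −0.10 to 0.11, adjusted p = 0.973).

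With siEzh2, Bmi1 had 213, 194 and 209 CPM, against 159, 168 and 166 CPM in scr. It rose 1.25-fold (0.32 ± 0.05, adjusted p = 5.24e-05), with no overlap between groups. The scr control itself lay below DMSO for Bmi1 (−0.20 ± 0.05, adjusted p = 0.00451). Set against the effect of GSK126, that of siEzh2 differed by −0.12 for Bmi1 (95% interval −0.26 to 0.03, adjusted p = 0.253), and the DZNep effect minus the siEzh2 effect was −0.32 (adjusted p = 0.000708). Both increases of Bmi1 were called under every alternative run.

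Pcgf2 (ENSMUSG00000018537, chromosome 11, 97688823 to 97700497, minus strand) had 103 to 109.5 CPM with GSK126 and 109.7 to 117 CPM with DZNep, against 105 to 112 CPM in DMSO. It had 104 to 121 CPM with siEzh2, against 111 to 135 CPM in scr. The groups overlapped in each comparison, and the largest of the 3 log2 fold changes was −0.11 ± 0.07 with siEzh2 (adjusted p = 0.257). Bmi1 over Pcgf2, per exon length, averaged 2.14 ± 0.0745 with GSK126 and 1.49 ± 0.0798 with DZNep, and 1.53 ± 0.0131 in DMSO (SD, n = 3 each). It averaged 1.64 ± 0.188 with siEzh2 and 1.21 ± 0.108 in scr. The ratio did not overlap with its control for GSK126 or siEzh2 (two-sided exact permutation p = 0.1 each, the smallest possible) and overlapped for DZNep (exact permutation p = 0.5).

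**Figure D2:**
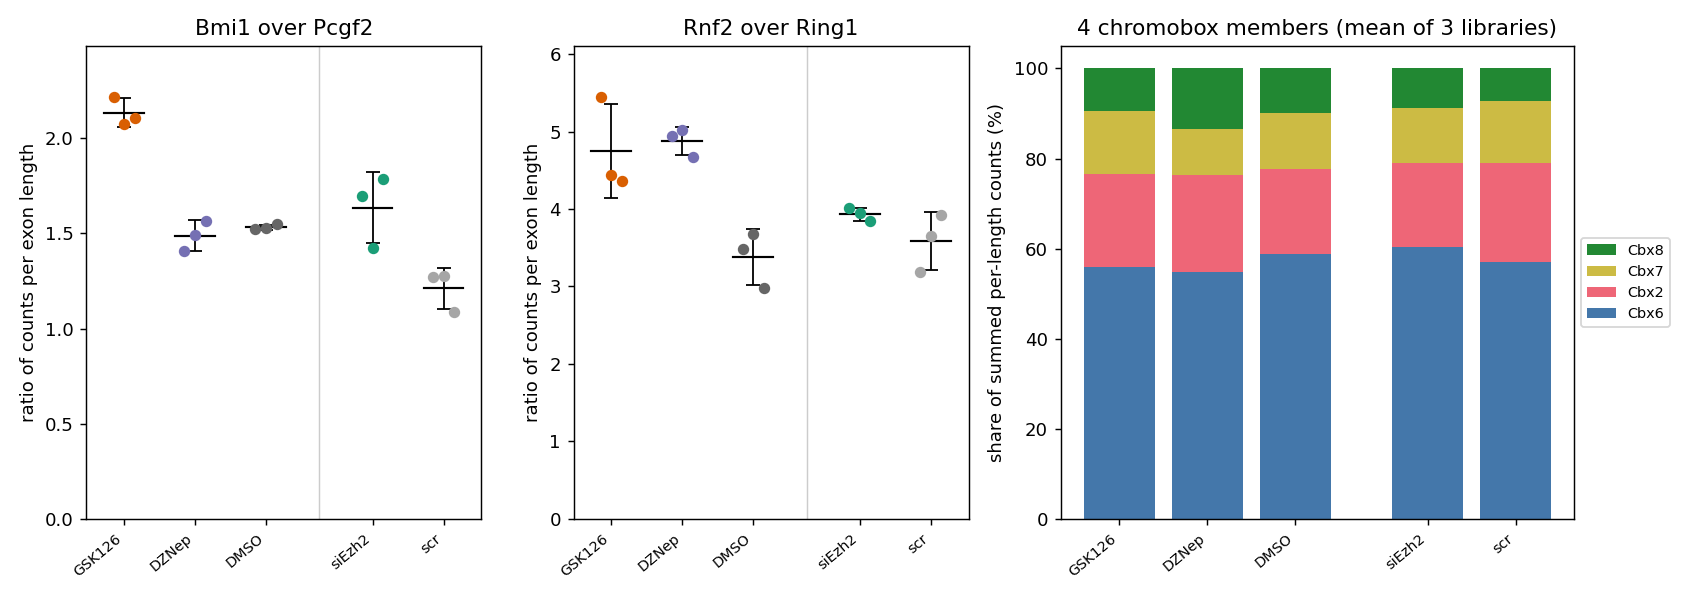
Left and centre, ratios of counts per exon length within each library for the PCGF pair and the RING pair (bars mean, whiskers SD of 3 libraries); right, mean share of each of the 4 chromobox members in their summed counts per exon length, in percent. Bmi1 over Pcgf2 stands highest with GSK126 (mean 2.14), and the Cbx8 share is largest with DZNep (mean 13.4%).

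CBX8 is a chromobox reader of canonical PRC1. Cbx8 (ENSMUSG00000025578, chromosome 11, 119036305 to 119040969, minus strand) had the widest range of group means of the 9 genes, 1.14 on the log2 scale. It had 8.72, 9.26 and 8.02 CPM with GSK126 and 15.4, 16.3 and 15.5 CPM with DZNep, against 9.13, 10.9 and 10.6 CPM in DMSO. The DZNep libraries stood well above DMSO, and those with GSK126 overlapped with DMSO in a single library. Cbx8 rose 1.54-fold with DZNep (0.63 ± 0.08, adjusted p = 6.05e-07) and stood at −0.24 ± 0.08 with GSK126 (adjusted p = 0.0572, or 0.014 without DMSO replicate 1). It had 7.89, 7.96 and 8.15 CPM with siEzh2, against 7.21, 6.76 and 6.69 CPM in scr, 2 groups that did not overlap (0.22 ± 0.08, adjusted p = 0.0647). Both siRNA groups lay below every DMSO library, and scr was lower than DMSO by 0.57 ± 0.08 on the log2 scale (adjusted p = 2.66e-05).

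The promoter sequences of Cbx8 and Bmi1 are shown because these genes had the widest ranges between groups. They are the 250 bases before the RefSeq start on GRCm38.p6, 5′ to 3′ on the gene's own strand, at chr11:119040914-119041163 for Cbx8 (minus strand) and chr2:18676768-18677017 for Bmi1 (plus strand). Capitals mark matches, on either strand, to 4 motifs. The E-box was searched as CACGTG. The CCAAT box was searched by the letters of its name. The GC box was searched as GGGCGG. The CRE was searched as TGACGTCA. No match to E2F letters, TTTGGCGC or TTTCGCGC, or to ETS letters, CCGGAAGT, was present in either window.
Cbx8: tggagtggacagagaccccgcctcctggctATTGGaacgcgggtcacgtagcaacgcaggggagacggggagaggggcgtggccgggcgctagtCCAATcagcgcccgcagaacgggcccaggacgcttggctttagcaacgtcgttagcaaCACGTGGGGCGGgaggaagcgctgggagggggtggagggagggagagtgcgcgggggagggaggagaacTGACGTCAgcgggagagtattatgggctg
Bmi1: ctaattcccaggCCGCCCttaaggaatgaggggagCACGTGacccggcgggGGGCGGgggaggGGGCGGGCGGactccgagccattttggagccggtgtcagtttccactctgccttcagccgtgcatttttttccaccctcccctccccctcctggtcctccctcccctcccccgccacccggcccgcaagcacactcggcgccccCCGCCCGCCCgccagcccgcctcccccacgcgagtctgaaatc
Bmi1 held 6 GC box matches, of which 2 pairs overlap, and 1 E-box match that begins 215 bases before the start. Cbx8 held 1 E-box match, beginning 98 bases before the start with a GC box match directly after it, 2 CCAAT matches and 1 CRE match. Of 8 members with a promoter in the RefSeq table, Bmi1, Pcgf2, Cbx6 and Cbx8 held an E-box match, against 6.02% of 32851 promoters in the same window. GC box letters were found in 32.7% of these promoters, CCAAT in 33.8%, the CRE in 1.55%, the E2F forms in 0.417% and 0.256%, and the ETS form in 2.88%. Among the 8 members, all but Phc1 held a GC box match, Cbx7 and Cbx8 held CCAAT matches, and Cbx8 alone held the CRE. The background was not matched for GC content, whose median was 52.4%, where the Cbx8 window had 66.4% and that of Bmi1 70.4%. The ratio of observed to expected CpG was 0.909 in the Cbx8 window and 0.715 in that of Bmi1, against a median of 0.373. The RefSeq starts are not always those of the gene coordinates printed here. The windows of Pcgf2, Cbx6, Cbx7 and Phc1 lay wholly inside those coordinates, and that of Cbx8 lay partly inside. These matches are descriptions of the letters only.

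CBX2 is a chromobox reader that also compacts chromatin. Cbx2 (ENSMUSG00000025577, chromosome 11, 119022962 to 119031270, plus strand) had 20.7, 22.6 and 22.3 CPM with GSK126 and 27.9, 28.7 and 30.7 CPM with DZNep, against 23.5, 21.9 and 22.2 CPM in DMSO. The DZNep libraries lay above all others of the study, while GSK126 overlapped with DMSO. Cbx2 rose 1.295-fold with DZNep (0.37 ± 0.06, adjusted p = 2.8e-05) and stood at −0.04 ± 0.06 with GSK126 (adjusted p = 0.726). It had 20.6, 18.4 and 20.4 CPM with siEzh2, against 23.5, 23.8 and 25.1 CPM in scr. The groups did not overlap, and Cbx2 fell with siEzh2 (−0.29 ± 0.06, adjusted p = 0.00199), opposite in sign to DZNep. The difference of these effects, DZNep minus siEzh2, was the largest of the 9 genes at 0.66 ± 0.09 (adjusted p = 3.92e-06).

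CBX6 and CBX7 are chromobox readers encoded 81118 bases apart on chromosome 15. Cbx6 (ENSMUSG00000089715, 79823896 to 79834688, minus strand) had 144, 149.5 and 147 CPM with GSK126 and 179, 184 and 194 CPM with DZNep, against 164, 168 and 189 CPM in DMSO. The GSK126 libraries lay below DMSO and those with DZNep overlapped with it. Cbx6 fell with GSK126 (−0.24 ± 0.05, adjusted p = 0.0048) and stood at 0.10 ± 0.05 with DZNep (adjusted p = 0.129, or 0.00862 without DMSO replicate 3, where the value was 0.16). It had 163, 151 and 161 CPM with siEzh2, against 157, 156 and 157 CPM in scr, groups that overlapped (0.02 ± 0.05, adjusted p = 0.871). The gene Npcd, on the same strand, shares 563 bases of exon with Cbx6, 5.31% of its exon length, so part of its reads is uncertain.

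Cbx7 (ENSMUSG00000053411, 79915807 to 79971119, minus strand) had 21.3, 21.7 and 24.6 CPM with GSK126 and 21.7, 20.7 and 21.4 CPM with DZNep, against 23.0, 20.8 and 23.2 CPM in DMSO. Neither compound group stood apart from DMSO (0.01 ± 0.06, adjusted p = 0.927, and −0.07 ± 0.06, adjusted p = 0.354). With siEzh2 it had 19.3, 19.4 and 19.6 CPM, against 23.6, 23.7 and 22.3 CPM in scr. The siEzh2 libraries were the lowest of all 15, and Cbx7 fell (−0.26 ± 0.06, adjusted p = 0.00496). Its exons share 100 bases with Apobec3 on the other strand.

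Cbx2 and Cbx8 lie 5034 bases apart on opposite strands of chromosome 11. Both rose with DZNep, whereas Cbx2 fell with siEzh2 and Cbx8 did not pass the test there.

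Within the summed counts per exon length of the 4 chromobox members, Cbx6 was the largest part in every group. The Cbx8 share averaged 13.4% ± 0.63 with DZNep and 9.95% ± 0.861 in DMSO, and the Cbx2 share 21.4% ± 0.349 with DZNep and 18.998% ± 1.36 in DMSO (SD, n = 3 each). The Cbx6 share averaged 54.9% ± 0.508 with DZNep and 58.7% ± 1.57 in DMSO. In each case no DZNep library overlapped with DMSO. With GSK126 the Cbx2 and Cbx8 shares overlapped with DMSO. The Cbx6 share averaged 55.8% with GSK126, so it lay below every DMSO library with both compounds. The Cbx7 share averaged 10.3% with DZNep, 13.99% with GSK126 and 12.4% in DMSO. It lay below every DMSO library with DZNep and above every one with GSK126. The Cbx6 share averaged 60.3% ± 0.303 with siEzh2 and 57.1% ± 0.0827 in scr, also without overlap, though Cbx6 itself was not called there. The other shares did not overlap either. With siEzh2 and in scr they averaged 18.8% and 21.9% for Cbx2, 12.1% and 13.8% for Cbx7, and 8.80% and 7.24% for Cbx8. These are shares of RNA, and the amounts of protein were not measured.

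PHC1 is a Polyhomeotic subunit whose SAM domain forms chains. Phc1 (ENSMUSG00000040669, chromosome 6, 122317731 to 122340561, minus strand) varied most within groups, with a pooled coefficient of variation of 8.34%, where Bmi1 had 3.34%. It had 96.6, 117 and 119.5 CPM with GSK126 and 96.8, 96.5 and 108 CPM with DZNep, against 102, 93.0 and 87.8 CPM in DMSO. Both compound groups overlapped with DMSO. Phc1 stood at 0.24 ± 0.08 with GSK126 (adjusted p = 0.0688, but 0.0117 without GSK126 replicate 1, where the value was 0.33, 0.034 without DMSO replicate 1, 0.00415 with no count filter and 0.0445 by DESeq2). With DZNep it stood at 0.10 ± 0.08 (adjusted p = 0.337). It had 91.3, 86.1 and 101 CPM with siEzh2, against 102, 109 and 117 CPM in scr, and the highest siEzh2 library, at 101.47 CPM, lay just below the lowest scr library, at 101.58 CPM. Phc1 fell with siEzh2 at the edge of the threshold (−0.23 ± 0.08, adjusted p = 0.0498). That call was lost without scr replicate 2 (0.101) or 3 (0.219) and without siEzh2 replicate 1 (0.128) or 2 (0.189). Phc1 averaged 93.0 CPM with siEzh2, 109 CPM in scr and 94.1 CPM in DMSO, so scr was the highest of these groups.

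**Figure D3:**
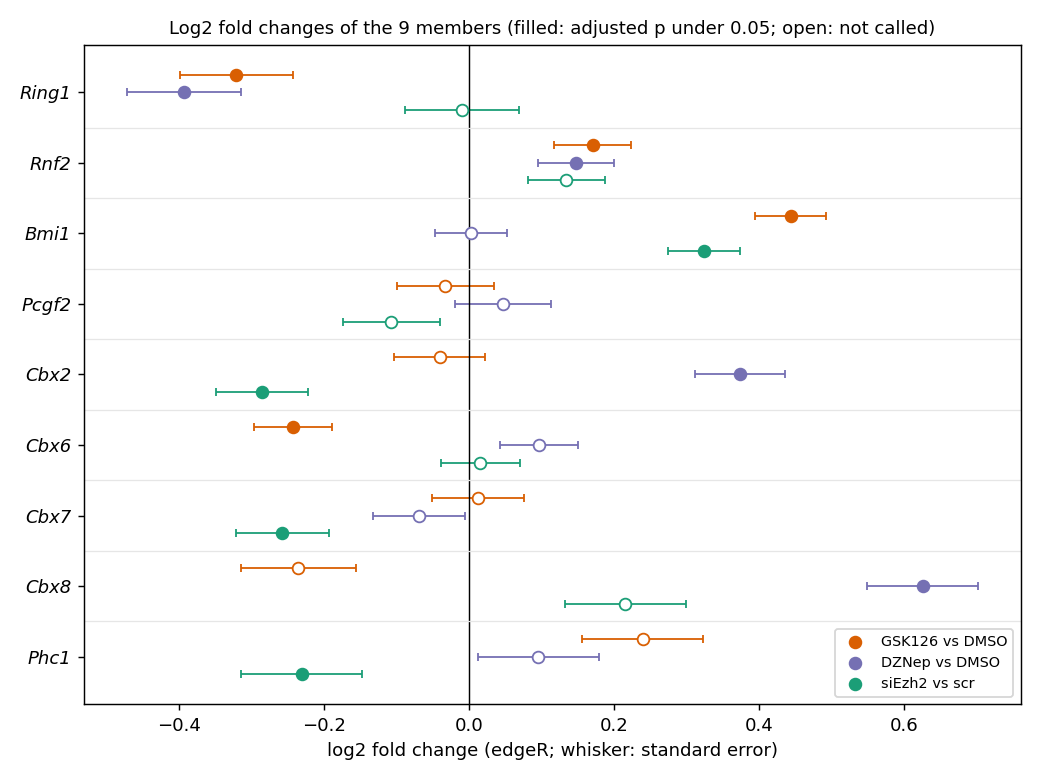
Log2 fold change (horizontal axis, whiskers standard error) of each of the 9 genes with GSK126 against DMSO, DZNep against DMSO and siEzh2 against scr; filled points have an adjusted p under 0.05. Bmi1 is filled to the right of 0 with GSK126 (0.44) and siEzh2 (0.32) and lies at 0 with DZNep, while Cbx2 is filled on opposite sides of 0 with DZNep (0.37) and siEzh2 (−0.29).

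DZNep and GSK126, given at the same 2 µM, were also set against each other. Cbx8, Cbx2 and Cbx6 were higher and Bmi1 was lower with DZNep than with GSK126, 3 of 9 genes called higher (32.9% of all genes) and 1 of 9 lower (31.7%), 4 of 9 in all, where 64.6% of all genes were called and 70.5% had groups that did not overlap. The log2 differences were 0.86 ± 0.08 for Cbx8 (adjusted p = 8.42e-09), 0.41 ± 0.06 for Cbx2 (adjusted p = 8.12e-06), 0.34 ± 0.05 for Cbx6 (adjusted p = 1.6e-05) and −0.44 ± 0.05 for Bmi1 (adjusted p = 1.59e-07). For Ring1 and Rnf2 the differences were −0.07 (95% interval −0.24 to 0.09) and −0.02 (−0.13 to 0.09). Phc1 stood at −0.14 ± 0.08 (adjusted p = 0.139, but 0.0139 without GSK126 replicate 1 and 0.0435 with no count filter). Pcgf2 and Cbx7 were not called.

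The controls differed as well. In scr, Bmi1, Cbx8 and Cbx6 were lower than in DMSO, 3 of 9 genes, where 13.6% of all genes were called lower and 25.9% in either direction, and where the libraries of 37.5% did not overlap. Cbx6 stood at −0.15 ± 0.05 (adjusted p = 0.0468), a call lost with library totals alone (−0.11, adjusted p = 0.167), with upper-quartile factors (0.0729), with no count filter (0.0548), in a fit of scr and DMSO alone (0.119), without DMSO replicate 2 (0.0531) or 3 (−0.09, 0.214) and without scr replicate 1 (0.0791), 2 (0.111) or 3 (0.0877). Phc1 was called higher in scr with library totals alone (0.25, adjusted p = 0.033), with no count filter (0.20, 0.00966) and without DMSO replicate 1 (0.27, 0.0354), and Pcgf2 with library totals alone (0.18, 0.0389). Of all genes called between scr and DMSO 47.3% were higher in scr, or 58.5% with library totals alone. Since the arms have separate controls, their effects were tested against each other only as a difference of effects, and levels set side by side across the arms are descriptions. In siEzh2 minus GSK126, 2 of 9 genes were called higher, where 10.1% of all genes were, and 2 lower, where 10.5% were, 4 of 9 in all against 20.7%. In DZNep minus siEzh2, 3 of 9 were called higher, where 25.3% of all genes were, and 2 lower, where 25.8% were, 5 of 9 in all against 51.1%.

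Other Polycomb genes were read from lists by complex. Of 5 further genes of canonical PRC1, 1 rose with GSK126, 1 rose and 1 fell with DZNep, and 1 rose with siEzh2, and the others were not called. Beside these counts, 12.7%, 62.3% and 26.1% of all genes were called. Scml4, a SAM-domain Polycomb-group gene, rose with GSK126 (5.71 ± 0.416 CPM, against 3.40 ± 0.258 CPM in DMSO; 0.74 ± 0.11, adjusted p = 0.00016) and with siEzh2 (0.33 ± 0.11, adjusted p = 0.0393). The siEzh2 call of Scml4 was lost without siEzh2 replicate 1 (0.119) or 3 (0.0822) or scr replicate 2 (0.0797) or 3 (0.124), and with library totals alone (0.0613). With DZNep, Scml2 rose (0.52 ± 0.09, adjusted p = 4.91e-05) and Scmh1 fell (−0.44 ± 0.06, adjusted p = 3.32e-06). The median of this list was −0.01 with GSK126, 0.11 with DZNep and −0.03 with siEzh2.

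Of 26 variant PRC1 genes, 3 rose and 2 fell with GSK126, 10 rose and 6 fell with DZNep, and 4 rose and 3 fell with siEzh2, where 12.7%, 62.3% and 26.1% of all genes were called. With GSK126, 3 were called without any 1 of the GSK126 replicates or without DMSO replicate 3, and Bcor and Bcorl1 were lost in each of these. With siEzh2, 4 were called without siEzh2 replicate 1 or 2 or scr replicate 2, and 3 without siEzh2 replicate 3. Auts2, a partner of PCGF3 and PCGF5 complexes, had 3.29 ± 0.454 CPM with GSK126 and 1.60 ± 0.0109 CPM in DMSO (1.04 ± 0.15, adjusted p = 0.00011). L3mbtl2, a subunit of the PCGF6 complex, stood at 53.7 ± 1.16 CPM with GSK126, 143 ± 5.93 CPM with DZNep and 71.0 ± 5.999 CPM in DMSO. It fell with GSK126 (−0.41 ± 0.06, adjusted p = 5.17e-05) and rose with DZNep (1.00 ± 0.06, adjusted p = 5.69e-12). L3mbtl2 also stood higher with siEzh2, at 97.6 ± 1.42 CPM, than in scr, at 67.1 ± 1.84 CPM, without overlap. Pcgf1, the PCGF protein of the BCOR complex, fell most with DZNep (−0.72 ± 0.09, adjusted p = 5.88e-07). With siEzh2, Pcgf3 had 123 ± 1.25 CPM, against 81.4 ± 3.76 CPM in scr (0.60 ± 0.05, adjusted p = 9.07e-09), and its level in DMSO was 131 ± 2.53 CPM. Hdac1, a deacetylase, had the largest decrease of the list with siEzh2 (−0.23 ± 0.07, adjusted p = 0.016, lost without siEzh2 replicate 1 at 0.065 or scr replicate 3 at 0.0806). The medians were 0.01, −0.02 and 0.00.

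Of 11 genes for removal of ubiquitin from H2A, 1 rose with GSK126, 3 rose and 2 fell with DZNep, and 1 rose and 1 fell with siEzh2. For this list and the HP1 genes below, the background is 12.7%, 62.3% and 26.1% of all genes called. Usp22, a deubiquitinase of the SAGA complex, rose with GSK126 (0.20 ± 0.04, adjusted p = 0.00351) and with siEzh2 (0.14 ± 0.04, adjusted p = 0.0267). Usp16, a deubiquitinase of H2A, rose with DZNep (0.33 ± 0.07, adjusted p = 0.000271) and fell with siEzh2 (−0.23 ± 0.07, adjusted p = 0.0153), and Foxk2 fell with DZNep (−0.25 ± 0.04, adjusted p = 4.38e-05). With siEzh2 the call of Usp16 was lost without siEzh2 replicate 3 (0.0984) or scr replicate 2 (0.0821). That of Usp22 was lost without siEzh2 replicate 1 (0.0548) or 2 (0.0575) or scr replicate 2 (0.083) or 3 (0.0711), with library totals alone (0.129) and with no count filter (0.178). Of the 3 chromobox genes of heterochromatin protein HP1, Cbx1 rose with DZNep (0.17 ± 0.05, adjusted p = 0.00692) and fell with siEzh2 (−0.19 ± 0.05, adjusted p = 0.0118), and Cbx5 also fell with siEzh2 (−0.17 ± 0.06, adjusted p = 0.0376). Without scr replicate 1 neither siEzh2 call held (0.117 for Cbx1 and 0.136 for Cbx5). That of Cbx1 was also lost without siEzh2 replicate 3 (0.0938), and that of Cbx5 without siEzh2 replicate 1 (0.0665) or 2 (0.167) or scr replicate 3 (0.127). Cbx1 averaged 92.0 CPM with siEzh2, 105 CPM in scr and 95.6 CPM in DMSO. Cbx5 averaged 508, 572 and 519 CPM in the same order, so scr was the highest of these groups for each gene. With GSK126, 0 of 3 were called by edgeR and 0 by DESeq2, and 0 had an unadjusted p under 0.05.

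Of 12 PRC2 genes, 3 fell with GSK126, 5 rose and 5 fell with DZNep, and 1 rose and 6 fell with siEzh2, the targeted Ezh2 among them (−2.47 ± 0.05, adjusted p = 1.22e-17). The shares of all genes called were 12.7%, 62.3% and 26.1%. The count with GSK126 was 1 without GSK126 replicate 2 or 3 or DMSO replicate 2 or 3, and Aebp2 and Rbbp4 were lost in each. Both were also lost with library totals alone (adjusted p = 0.0718 and 0.0851) and with no count filter (0.118 and 0.0505). A fit of GSK126 and DMSO alone lost them too (0.0924 and 0.121). The count with DZNep was 6 without DMSO replicate 1. Rbbp7, a histone chaperone, had the largest called decrease with GSK126 (−0.22 ± 0.05, adjusted p = 0.00709). With DZNep, Eed, which binds H3K27me3 within PRC2, rose (0.44 ± 0.05, adjusted p = 6.3e-07) and Phf19 fell (−0.51 ± 0.07, adjusted p = 2.44e-06). Jarid2, an accessory subunit, rose with siEzh2 (0.20 ± 0.05, adjusted p = 0.00584). Jarid2 averaged 111 CPM with siEzh2, 96.6 CPM in scr and 106 CPM in DMSO, so scr was the lowest of these groups. The medians were −0.14, 0.02 and −0.17, beside −0.01, 0.00 and −0.01 over all genes. The siEzh2 median includes the targeted Ezh2. Between the controls, 3 of the 12 genes were called higher and 1 lower in scr than in DMSO. Phf19 stood at 14.3 CPM with siEzh2, 21.3 CPM in scr and 13.6 CPM in DMSO, so its high group was scr. The siEzh2 call of Suz12 was lost without any 1 scr or siEzh2 library (adjusted p = 0.0558 to 0.123). Suz12 averaged 319 CPM with siEzh2, 353 CPM in scr and 317 CPM in DMSO, so its high group was also scr.

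**Figure D4:**
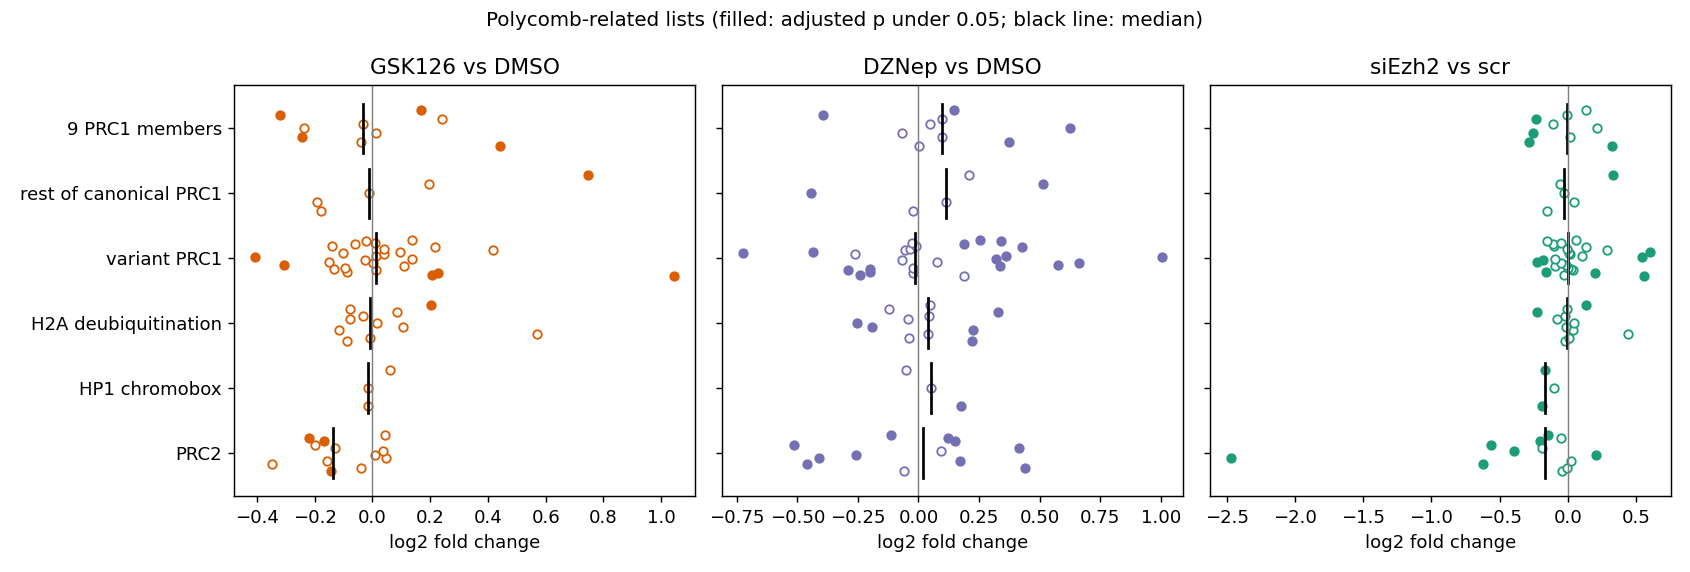
Log2 fold change of every tested gene of 6 Polycomb-related lists in the 3 comparisons; each point is a gene, filled where the adjusted p is under 0.05, and black lines are list medians. The horizontal axes differ between panels. With DZNep the variant PRC1 genes spread from −0.72 (Pcgf1) to 1.00 (L3mbtl2).

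Of 21 listed genes known as Polycomb targets in other cells, 10 passed the filter. Of these, 2 rose and 0 fell with GSK126, 3 rose and 5 fell with DZNep, and 2 rose and 3 fell with siEzh2, with medians of 0.09, −0.06 and −0.24. Among all genes, 12.7%, 62.3% and 26.1% were called. Cdkn2a and Cdkn2b had 0 counts in all 15 libraries, so the locus for which BMI1 is best known gave no reads, with an upper limit of 3 counts per library. From counts alone a silent locus and one missing from the genome cannot be told apart, and this was not tested. With GSK126, Hoxd13 (0.35 ± 0.08, adjusted p = 0.00437) and Hoxa10 (0.24 ± 0.06, adjusted p = 0.00889) rose, and the call of Hoxa10 was lost without GSK126 replicate 3 (0.0557). With DZNep, Hoxa11 rose most (1.11 ± 0.13, adjusted p = 2.99e-07), followed by Hoxa10 (0.33) and Hoxa5 (0.25), while Hoxb9 (−3.40 ± 0.19, adjusted p = 1.23e-11), Cdkn1c (−3.02 ± 0.50), Hoxa7 (−1.07), Hoxa9 (−1.06) and Hoxd13 (−0.20) fell. Hoxb9 stood at 0.692 ± 0.18 CPM with DZNep and 7.53 ± 1.40 CPM in DMSO (SD, n = 3 each), and Cdkn1c had 5 counts in all over the 3 DZNep libraries. The DZNep call of Hoxa5 was lost without DZNep replicate 2 (0.0613) or 3 (0.0936), without DMSO replicate 2 (0.06) and in a fit of these groups alone (0.0578). That of Hoxd13 was lost without DZNep replicate 1 (0.077) or 2 (0.0919) or DMSO replicate 1 (0.0803) or 2 (0.152). With siEzh2, Hoxa7 (0.33 ± 0.09, adjusted p = 0.0141) and the cell cycle inhibitor Cdkn2c (0.20 ± 0.05, adjusted p = 0.00796) rose, while Cdkn1c (−2.14 ± 0.22, adjusted p = 3.85e-07), Hoxb9 (−1.18 ± 0.13) and Hoxa9 (−0.44 ± 0.11) fell. The call of Hoxa7 was lost without siEzh2 replicate 2 (0.0894) or scr replicate 1 (0.0507) or 3 (0.0523), and that of Hoxa9 without siEzh2 replicate 3 (0.0637). Cdkn1c stood at 0.57 ± 0.222 CPM with siEzh2, 2.50 ± 0.335 CPM in scr and 0.356 ± 0.0259 CPM in DMSO (SD, n = 3 each), so the high group was scr. Hoxb9 likewise stood at 6.96 ± 0.885 CPM with siEzh2, 15.7 ± 1.04 CPM in scr and 7.53 ± 1.40 CPM in DMSO. Hoxb13 was not called in any of the 3.

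The genes whose profiles over the 15 libraries were most like those of the most variable members were found by the root mean square difference of centred log2 CPM. Nearest to Cbx8 were Sord (0.089), Gm6652 (0.090) and Tm4sf1 (0.092). Nearest to Bmi1 were Phldb2 (0.060), Lgr4 (0.077) and Enah (0.085), and nearest to Cbx2 were Usp37 (0.059), Cops7b (0.062) and Mllt1 (0.062). This measure describes likeness of levels only.

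The cells carried their label: all 9 listed melanocyte markers, Pmel, Dct and Tyrp1 among them, were detected. Their summed level was 28180 to 28400 CPM with GSK126 and 32050 to 34300 CPM with DZNep, against 32750 to 34280 CPM in DMSO, and 33110 to 36970 CPM with siEzh2, against 23990 to 25610 CPM in scr. The DZNep sum joins opposite changes. With DZNep 4 of 9 markers were called higher (31.2% of all genes) and 3 lower (31.0%). Dct averaged 4959 CPM with DZNep and 8773 CPM in DMSO, while Tyrp1 averaged 10517 and 9052 CPM. Fibroblast markers, 3 of 6 of which passed the filter, summed to 14.03 to 16.5 CPM with GSK126 and 16.1 to 18.1 CPM with DZNep, against 11.9 to 12.9 CPM in DMSO, and to 14.4 to 16.4 CPM with siEzh2, against 12.7 to 13.5 CPM in scr. Epithelial markers, nearly all of it Cdh1, summed to 2.58 to 3.49 CPM with GSK126 and 11.3 to 11.7 CPM with DZNep, against 3.40 to 3.65 CPM in DMSO, and to 4.51 to 4.95 CPM with siEzh2, against 2.33 to 3.01 CPM in scr. Blood and endothelial markers stayed below 0.43 CPM, with 3 of 6 and 1 of 4 at 0 in all libraries. The part of these shifts in the changes of the 9 genes was not tested.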

How the data were processed

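RNA of 15 B16-F10 libraries was sequenced. Per the submitters' processing notes the tools were STAR and featureCounts and the build was GRCm38, with no versions, annotation or strand setting given. The authors deposited whole-number read counts per gene with no normalization. GENCODE M21 gave symbols for 45143 of 46078 identifiers, coordinates, exon lengths (union of exons) and overlaps, and the other 935 held 0.0588% of counts. Columns were assigned by library name.

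Counts were tested with edgeR 4.0.16 in R 4.3.3 (filterByExpr, TMM, robust quasi-likelihood test) in 1 fit of all 15 libraries, with Benjamini-Hochberg adjustment over 15152 genes. The common dispersion was 0.00409, a variation of 6.4% between libraries. The script was tested on simulated data. Replicate pairs differed by more than sampling noise (chi-square per degree of freedom 5.96 to 38.8). No source states that replicates came from separate cultures. The p-values thus reflect the spread among the libraries alone, and that spread may be technical. Intervals are 95%. Profiles used log2(CPM + 0.5).

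Members and lists were chosen with earlier results of these data known. Named were all members, Ezh2, each list's called gene with the largest change each way per main comparison, all detected Polycomb targets, and the 3 nearest profiles of the 3 most variable members. Cbx5, Bcor, Bcorl1, Aebp2, Rbbp4 and Suz12 were named after their values were seen. One gene of the lists is not reported here. Alternatives were library totals, upper-quartile factors, DESeq2 1.42.0, no count filter, a fit of the compared groups alone, a replicate block and leaving out each library.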

Additional observations from a re-analysis of the deposited data

Results flagged for a closer look

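Members whose effects differed between arms, by a test of the difference of effects in edgeR, are given here as log2 values. In the siEzh2 effect minus that of GSK126, Cbx8 stood at 0.45 (adjusted p = 0.00794), Cbx6 at 0.26 (adjusted p = 0.0197), Cbx7 at −0.27 (adjusted p = 0.0384) and Phc1 at −0.47 (adjusted p = 0.00803). The call of Cbx6 was lost with library totals alone (0.0657) and without siEzh2 replicate 1 (0.0504). That of Cbx7 was lost with no count filter (0.0884), in a fit of these groups alone (0.0533), without GSK126 replicate 3 (0.136) or DMSO replicate 2 (0.105), and without any 1 of siEzh2 replicates 1 (0.0706), 2 (0.0681) and 3 (0.0723) or scr replicates 1 (0.0992) and 2 (0.0881). Ring1 was called higher with no count filter (0.31, adjusted p = 0.0481) and without DMSO replicate 1 (0.0322) or 2 (0.0397) or scr replicate 1 (0.0306), and Cbx2 lower with library totals alone (−0.28, 0.0408) and without DMSO replicate 1 (0.0421).

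In the DZNep effect minus that of siEzh2, Cbx2 stood at 0.66 (adjusted p = 3.92e-06), Cbx8 at 0.41 (adjusted p = 0.00502), Phc1 at 0.33 (adjusted p = 0.0285), Bmi1 at −0.32 (adjusted p = 0.000708) and Ring1 at −0.38 (adjusted p = 0.00695). The call of Phc1 was lost without DZNep replicate 3 (0.0925), DMSO replicate 2 (0.055) or 3 (0.0777), siEzh2 replicate 1 (0.0572) or 2 (0.0775) or scr replicate 3 (0.0904). Each difference draws on both control groups, which themselves differed for Bmi1, Cbx6 and Cbx8. Phc1 was not called between the controls by edgeR, but its scr level leaned higher (0.22 ± 0.08, adjusted p = 0.0672). Its mean was 93.0 CPM with siEzh2, 109 CPM in scr and 94.1 CPM in DMSO.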

How the results depend on the processing

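Counts of called members stayed within 1.5 times of those reported under library totals, upper-quartile factors, DESeq2, no count filter and the replicate block, in all 7 comparisons. With only GSK126 and DMSO libraries fitted, that comparison gave 2 members and 1131 genes, against 4 and 1923 with all 15. The reason for this fall was not tested. Leaving out 1 library gave 2 to 5 members and 1183 to 2490 genes with GSK126 (1229 genes without GSK126 replicate 1, 1203 without replicate 3, and 2 members and 1237 genes without DMSO replicate 3), and 2 to 6 members in siEzh2 minus GSK126, with 2 without siEzh2 replicate 1. Values near 0 changed sign. Bmi1 with DZNep was −0.0024 with library totals, −0.019 with upper-quartile factors, −0.00016 by DESeq2, −0.0096 with no count filter and −0.0066 with only DZNep and DMSO fitted, and Cbx6 with siEzh2 was −0.014 with library totals. Leaving out 1 library gave ranges of −0.055 to 0.049 for Cbx7 with GSK126, −0.032 to 0.019 for Bmi1 with DZNep, −0.046 to 0.057 for Ring1 and −0.0039 to 0.048 for Cbx6 with siEzh2, −0.059 to 0.0057 for Rnf2 in DZNep against GSK126, −0.06 to 0.013 for Rnf2 and −0.13 to 0.023 for Pcgf2 in siEzh2 minus GSK126, and −0.038 to 0.037 for Rnf2 in DZNep minus siEzh2. The cause was not tested. Of the members' values with 1 library left out, 427 kept direction and call, 32 lost a call, 11 gained one and 16 changed sign, and under the other alternatives 351, 12, 9 and 6. With the replicate block the members called were 4 with GSK126, 4 with DZNep and 4 with siEzh2, among 1937, 9451 and 3965 genes. Of the PRC2 calls the block lost Aebp2 (adjusted p = 0.0539) and Rbbp4 (0.052) with GSK126, and Rbbp7 (0.0555) and Suz12 (0.05) with DZNep. Correlations between same-numbered libraries ran from −0.21 to 0.13, not above 0.1 in every pair, and the main fit did not pair the samples. With 3 libraries a group, such correlations cannot tell whether same-numbered libraries were handled together. Ring1, Cbx2, Cbx7 and Cbx8, the lowest members, rest on the fewest counts.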
